A study of Rattus norvegicus with 54 samples.

Results

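The border zone of infarcted rat hearts that received a cell sheet was set against the same position in sham-operated hearts, 1 week after surgery. The comparison took every library titled MI+Cell Sheet (6) and every library titled Sham (6) from the border zone, so that 12 of the 54 libraries of the series entered. All of the rats were females of the athymic strain F344/NJcl-rnu/rnu, 8 weeks old at surgery. The sham group had the operation without ligation and no treatment. The cell sheet group had its left anterior descending coronary artery tied off permanently and was then given, on the epicardium over the infarct, a scaffold-free sheet in which human endothelial progenitor cells lay on human smooth muscle cells. Tissue below the ligature was divided into infarct, border zone (lateral wall) and remote (septum) pieces, and polyA RNA was sequenced from each. A sham heart holds no infarct, so its border zone is a position and not a lesion. The cell sheet group therefore differs from sham by ligation and by the sheet at once, and the contrast contains both. The 6 border zone libraries of untreated infarcted hearts (MI: ligation, no sheet) are given beside the results for that reason. The labels call the number of each library a technical replicate, whereas the study's methods describe 6 hearts per group. If the labels are right, the p-values measure only the spread between technical samples.

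A ligated coronary artery kills the cardiomyocytes it supplied, and the lost muscle is replaced by a scar that fibroblasts and myofibroblasts lay down from collagens and matricellular proteins. The border zone lies between that scar and surviving muscle and holds both. Healthy cardiomyocytes are packed with mitochondria and burn mainly fatty acids, so mitochondrial and sarcomere transcripts make up much of the RNA of an uninjured left ventricle. Athymic rats lack a thymus and with it most mature T cells, while natural killer cells and macrophages remain.

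The 12 libraries held 13794048 to 22523580 counts on the 40319 listed genes. Reads outside genes took 18.7 to 33.5% of the sham totals (median 29.5%) and 11.5 to 20.6% of the cell sheet totals (median 17.9%), and whether this share took part in any difference was not tested. A pair of libraries stood apart before any test. Sham replicate 5 had a mean correlation of 0.869 with the other 5 sham libraries, whose own means ranged from 0.955 to 0.959, and it lay outside the range of those 5 in 76.3% of the genes. It held 124 CPM (counts scaled to a common library size) of Cd3e, a chain of the T cell receptor complex, against at most 1.97 CPM in the other sham border zone libraries, and it stood out in the same way in its remote (93.9 CPM) and infarct (102 CPM) pieces. Cell sheet replicate 1 had nearly no heart muscle RNA: its 12 cardiomyocyte markers summed to 201 CPM, against a cell sheet median of 27800 CPM. Counts are therefore given with all 12 libraries, and without sham replicate 5 or without both of these libraries where that changes the picture.

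Over all 12 libraries, 6955 of 15960 genes tested passed a Benjamini-Hochberg adjusted p of 0.05 in edgeR's quasi-likelihood test (43.6%). The cell sheet group had the higher level in 3254 of them (20.4% of those tested) and the lower in 3701 (23.2%), and 2967 genes passed with an absolute log2 change above 1 as well (18.6%). Without sham replicate 5 the count rose to 9954 of 16160 (61.6%), with 5313 higher and 4641 lower, and 6854 genes were called both with and without it, none in opposite directions. Without cell sheet replicate 1 the share called was 39.4%, and without both libraries 60.7%. The median change over all genes was -0.03 on the log2 scale. Under library sizes without TMM it was 0.24, and 71.2% of the called genes were then higher, against 46.8% with TMM. The groups did not overlap, 6 against 6, in 3132 genes (19.6%), higher with the sheet in 1524 (9.55%) and lower in 1608 (10.1%).

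Because the genes of the respiratory chain moved together, and because smooth muscle actin is among the genes the contrast turns on, their promoters are shown first. The NRF-1 site, whose letters are the capitals in the first 3 promoters printed here, reads the same on both strands and is bound by nuclear respiratory factor 1, a regulator of respiratory chain genes. It was present in the 250 bases before the start of 4 of 69 oxidative phosphorylation genes with a single RefSeq promoter (5.8%), in 4 of 56 mitochondrial ribosomal protein genes (7.14%) and in 175 of 10760 promoters of genes tested (1.63%). The CArG box, bound by serum response factor in muscle genes, was searched on both strands with at most 1 base off. It was found in 1 of 8 smooth muscle contractile promoters (12.5%), in 7 of 18 sarcomere promoters (38.9%) and in 7.42% of all 10760. A match is a description of these letters only. The sequences are RefSeq's on GRCr8, a later build than the mRatBN7.2 assembly the counts were made on, and read 5′ to 3′ on the gene's strand with the matched letters in capitals. Each ends at the base before the start. The ATP synthase subunit genes Atp5mc2 (chr7:135678219-135678468, minus strand), Atp5me (chr14:1464610-1464859, plus strand) and Atp5po (chr11:44657484-44657733, minus strand) each hold 1 NRF-1 site, and Ndufa11, of complex I (chr9:1637364-1637613, plus strand), holds 2 that overlap. Acta2, smooth muscle actin (chr1:241172504-241172753, minus strand), holds 2 CArG matches, which begin 134 and 84 bases before the start.
Atp5mc2: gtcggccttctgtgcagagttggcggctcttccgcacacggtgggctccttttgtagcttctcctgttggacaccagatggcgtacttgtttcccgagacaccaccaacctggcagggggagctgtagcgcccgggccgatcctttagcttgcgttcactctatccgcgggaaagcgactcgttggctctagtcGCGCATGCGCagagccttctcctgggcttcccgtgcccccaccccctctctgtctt
Atp5me: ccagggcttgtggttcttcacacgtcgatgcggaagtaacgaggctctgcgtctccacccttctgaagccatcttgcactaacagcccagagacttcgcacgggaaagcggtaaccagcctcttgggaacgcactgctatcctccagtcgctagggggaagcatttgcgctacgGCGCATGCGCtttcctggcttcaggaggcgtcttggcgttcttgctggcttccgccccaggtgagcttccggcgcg
Atp5po: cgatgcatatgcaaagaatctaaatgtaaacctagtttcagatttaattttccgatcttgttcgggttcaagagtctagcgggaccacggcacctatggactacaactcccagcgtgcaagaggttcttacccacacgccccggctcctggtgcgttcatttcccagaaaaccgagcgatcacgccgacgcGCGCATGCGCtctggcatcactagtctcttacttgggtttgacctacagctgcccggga
Ndufa11: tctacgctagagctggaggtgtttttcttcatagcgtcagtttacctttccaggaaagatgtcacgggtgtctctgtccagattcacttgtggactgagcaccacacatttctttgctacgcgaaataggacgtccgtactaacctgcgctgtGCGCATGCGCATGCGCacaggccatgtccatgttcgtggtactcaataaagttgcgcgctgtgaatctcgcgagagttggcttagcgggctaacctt
Acta2: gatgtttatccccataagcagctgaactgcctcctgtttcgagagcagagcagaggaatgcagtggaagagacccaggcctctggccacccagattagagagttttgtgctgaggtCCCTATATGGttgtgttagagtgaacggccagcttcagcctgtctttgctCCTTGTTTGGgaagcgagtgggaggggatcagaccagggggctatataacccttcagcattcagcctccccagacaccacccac

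Scar matrix genes were higher almost throughout in the cell sheet border zone. Of 31 collagen genes tested, 24 were higher and 0 lower (median log2 change 2.01, against -0.03 over all genes and 20.4% of all genes called higher). All 21 collagen processing and crosslinking genes tested were higher (median 1.56), as were 30 of 34 matricellular and provisional matrix genes (median 2.02). In bulk tissue more cells of a type and more RNA per cell cannot be told apart. Without both outlying libraries the counts were 25 higher and 2 lower of 30 collagens, 21 of 21 processing genes and 32 of 34 matricellular genes. Among all genes 31.4% were then higher and 29.4% lower.

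Col1a1, the main chain of type I collagen and of scar, measured 534, 686 and 821 CPM (lowest, median and highest) in the sham libraries and 7328, 11700 and 17540 CPM in the cell sheet libraries. The groups lay far apart, a 17.6-fold rise (log2 change 4.14, SE 0.31, adjusted p = 6.4e-06). Col3a1, the chain of type III collagen that is laid down early in repair, went from a sham median of 2151 CPM to 18930 CPM, with no overlap (log2 change 3.23, SE 0.33, adjusted p = 2.7e-05). The largest collagen rises were in fibril-associated and minor fibrillar chains. Col12a1, which decorates the surface of type I fibrils, measured 5.29, 7.02 and 13.3 CPM in sham and 296, 427 and 1027 CPM with the sheet, a 65.6-fold rise (adjusted p = 4.0e-06). Col11a1, a minor fibrillar chain otherwise known from cartilage, lay between 0.0621 and 2.39 CPM in sham and between 44.7 and 170 CPM with the sheet (log2 change 7.07, SE 0.68, adjusted p = 2.0e-05).

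The 3 chains of the main type VI collagen, which links cells to the fibrils around them, rose to a similar degree. Col6a1 measured 309, 335 and 397 CPM in sham and 758, 2083 and 3054 CPM with the sheet, a log2 change of 2.60 (SE 0.30, adjusted p = 5.6e-05). Col6a2 rose by a log2 change of 2.52 (SE 0.29) and Col6a3 by 3.09 (SE 0.25). In all of these chains the lowest cell sheet library was above the highest sham library. The members that did not pass the test were Col22a1, Col28a1, Col15a1, Col6a6, Col13a1, Col4a4 and Col4a3. The last pair, chains of basement membrane collagen, had log2 changes of -0.31 and -0.56, and both were lower past the threshold without sham replicate 5.

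**Figure D1:**
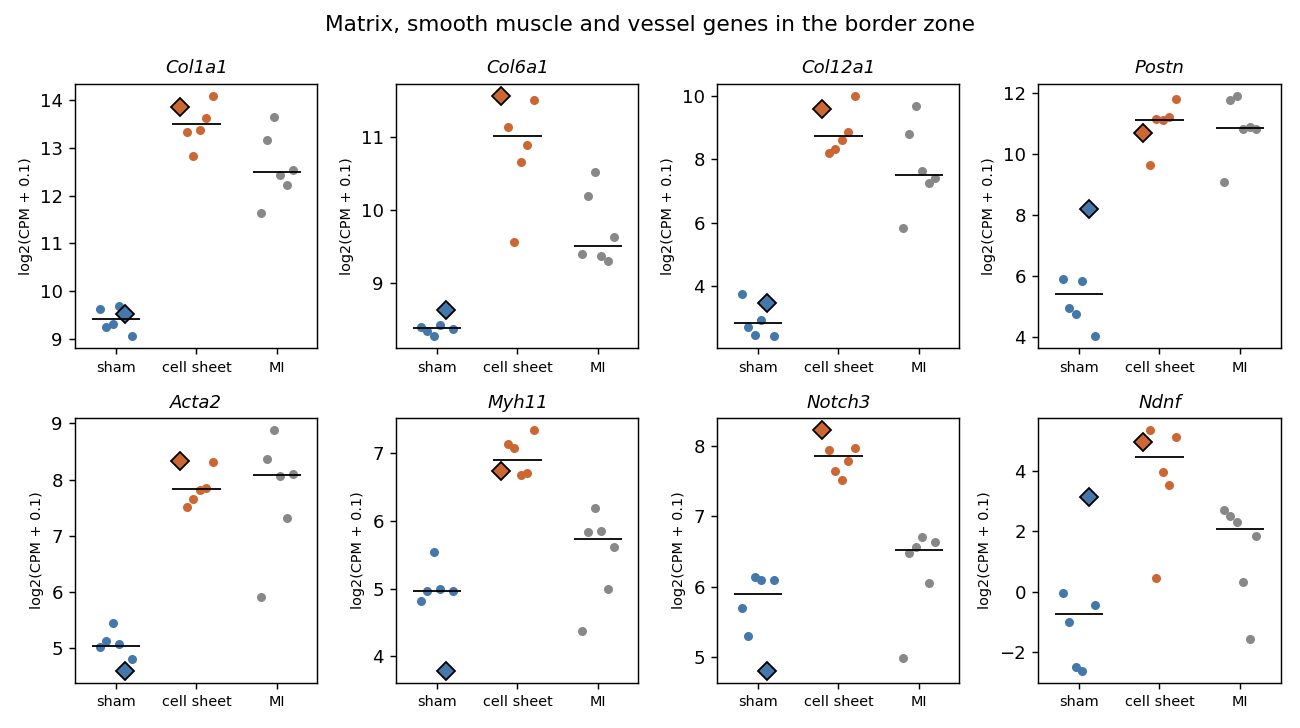
Levels of 8 matrix, smooth muscle and vessel genes in each border zone library, as log2(CPM + 0.1), in the sham, cell sheet and MI groups (6 points each, line at the median). Black-edged diamonds are sham replicate 5 and cell sheet replicate 1. The sham and cell sheet points do not overlap for 7 of the genes, and for Ndnf sham replicate 5 (8.75 CPM) lies above cell sheet replicate 3 (1.26 CPM).

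Enzymes that finish collagen rose with it. Lox, the oxidase that crosslinks collagen and elastin, went from 18.5, 29.9 and 57.8 CPM in sham to 262, 436 and 622 CPM (log2 change 3.64, SE 0.35, adjusted p = 2.0e-05). P4ha3, a prolyl hydroxylase subunit, showed a larger change from a low base, 4.57 (SE 0.52), with 0.186 to 3.40 CPM in sham and 20.3 to 56.5 CPM with the sheet. The smallest rises among the 21 were in P4ha2 (0.72), Loxl4 (0.77) and P4ha1 (0.78).

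Among the matricellular genes, Fn1 (fibronectin, the provisional matrix on which fibroblasts move) rose 16.6-fold, from a sham median of 199 CPM to 3301 CPM. Postn, periostin of activated fibroblasts, measured 16.2, 44.0 and 295 CPM in sham and 802, 2225 and 3528 CPM with the sheet (log2 change 4.72, SE 0.74, adjusted p = 0.00042). The sham value of 295 CPM was replicate 5, and the change without it was 5.78. Cthrc1, a secreted marker of activated fibroblasts, rose 42.6-fold (2.12 against 176 CPM, medians) with no overlap. Spp1 (osteopontin, largely from macrophages) and Tnc (tenascin C) also rose, by 5.64 (adjusted p = 0.010) and 3.81 (adjusted p = 0.025), but their groups overlapped through sham replicate 5. Without that library the changes were 8.15 and 6.60. Decorin, Dcn, a proteoglycan of resting fibroblasts, was at 1145 CPM in sham and 1150 CPM with the sheet (medians), with a log2 change of 0.11 (SE 0.19, adjusted p = 0.65). Hapln3, Ogn and Cd44 were the other members that did not pass.

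Proteases of the matrix were mostly higher too. Of 26 metalloproteinase and inhibitor genes tested, 16 were higher and 2 lower (median 1.06), where 20.4% of all genes were higher and 23.2% lower. Adam12, a membrane protease of activated mesenchymal cells, measured 0.248, 1.496 and 4.56 CPM in sham and 40.2, 188 and 405 CPM with the sheet, a log2 change of 6.81 (SE 0.77, adjusted p = 5.3e-05). Mmp14, which cleaves collagen at the cell surface, rose 6.89-fold with no overlap. The lower pair were the inhibitors Timp4 (-1.68, adjusted p = 0.0037), which is abundant in heart muscle, and Timp3 (-0.28, adjusted p = 0.039). These 2 were named after their values were seen.

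Signals that act on fibroblasts followed the matrix in part. Among all genes 20.4% were higher and 23.2% lower, the shares to read the lists below against. In the TGF-β and activin system 16 of 27 members were higher and 0 lower (median 0.79), led by Ltbp2, a protein of the microfibrils, at 3.70 (SE 0.89, adjusted p = 0.0058). Its groups touched at 110 CPM, the level of both sham replicate 5 and cell sheet replicate 1. The ligand Tgfb1 itself had a log2 change of 0.52 (adjusted p = 0.22). Among Wnt ligands, receptors and antagonists 14 of 22 were higher and 1, the ligand Wnt11, lower. Secreted frizzled-related proteins, which bind Wnt ligands outside the cell, led that list. Sfrp4 measured 0.158, 0.503 and 0.807 CPM in sham and 12.9, 133 and 183 CPM with the sheet (log2 change 7.74, SE 0.70, adjusted p = 1.5e-05), and Sfrp1 rose 11.6-fold (adjusted p = 9.4e-06).

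Of 13 contractile smooth muscle genes, 10 were higher and 0 lower (median 1.84), and without both outlying libraries 10 were higher and 1 lower. Among all genes 20.4% were higher and 23.2% lower with all 12 libraries, and 31.4% and 29.4% without both. The sheet's cells were human and their reads were not separated from rat reads here, so the part of sheet transcripts in these values was not tested. Acta2 (smooth muscle actin, also of myofibroblasts) measured 24.1, 32.9 and 43.3 CPM in sham and 182, 227 and 321 CPM with the sheet, a 7.41-fold rise (log2 change 2.89, SE 0.19, adjusted p = 2.9e-06). Tagln, another cytoskeletal gene that both cell types use, rose 6.58-fold. Myh11, the heavy chain of smooth muscle myosin and the more selective marker of smooth muscle, measured 13.7, 31.0 and 46.5 CPM in sham and 102, 120 and 161 CPM with the sheet (log2 change 2.01, SE 0.25, adjusted p = 8.2e-05). Groups did not overlap for any of these. Synpo2, Smtn and Des were the members that did not pass.

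Against the MI group these genes parted. Acta2 had an MI median of 271 CPM, and its log2 difference between cell sheet and MI was -0.08 (adjusted p = 0.91). Myh11 had an MI median of 52.9 CPM and was higher with the sheet by 1.37 (adjusted p = 0.0044). Notch3, the Notch receptor of vascular smooth muscle and pericytes, measured 27.8, 59.8 and 70.1 CPM in sham, 31.5, 91.5 and 104 CPM in MI and 182, 233 and 298 CPM with the sheet. It rose by 2.08 against sham (SE 0.23, adjusted p = 5.0e-05) and was higher than in MI by 1.53 (adjusted p = 0.0019), with every cell sheet library above every other border zone library. Of 10 mural cell markers, 5 were higher than in MI and 0 lower, and of 18 Notch pathway genes 6 were higher and 0 lower, where 8.47% of all genes were higher and 9.48% lower in that comparison. The other mural markers higher than in MI were Abcc9 (1.30), Cspg4 (0.70) and Rgs5 (0.63). Against sham, 5 of 18 Notch pathway genes were higher and 0 lower (median 0.11), a share higher that is near the 20.4% of all genes. These were Notch3, Notch2 (1.43), Jag1 (0.78) and the coactivators Maml1 (0.79) and Maml2 (0.52), while the classical target genes Hes1, Hey1, Hey2 and Heyl had log2 changes between -0.59 and -0.49, none past the threshold with all 12 libraries. Hes1 and Hey1 were lower past it without sham replicate 5.

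With all 12 libraries the endothelial markers showed no common direction. Of 10 endothelial markers 1 was higher (Cdh5, VE-cadherin, 0.65, adjusted p = 0.042) and 1 lower (Tek, the angiopoietin receptor, -0.46, adjusted p = 0.048). Among all genes 20.4% were higher and 23.2% lower. Pecam1 (CD31) measured 161, 295 and 362 CPM in sham and 250, 317 and 393 CPM with the sheet, a log2 change of 0.16 (SE 0.18, adjusted p = 0.49). Without TMM Pecam1 passed (0.45, adjusted p = 0.046). In that setting 2 markers were higher and 0 lower, where 5308 of 15960 genes were higher and 2150 lower. The calls of Cdh5 and Tek were marginal. Tek did not pass without TMM (-0.17, adjusted p = 0.36) or with any single library left out other than sham replicate 5, and Cdh5 did not pass with sham replicate 1, 2 or 4 or with cell sheet replicate 1, 2, 4, 5 or 6 left out (highest adjusted p = 0.086). Without sham replicate 5, the lowest sham library for this list, 1 marker was higher and 5 were lower (median -0.34). Without both outlying libraries the counts were the same (median -0.38). Of all genes 28.7% were lower without sham replicate 5 and 29.4% without both.

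Of 30 genes of vessel growth tested, 10 were higher and 7 lower, where 20.4% of all genes were higher and 23.2% lower, so that the share lower was near that of all genes. Without TMM 14 were higher and 3 lower. Angpt2, which loosens vessels, rose from 9.23, 9.64 and 10.4 CPM to 19.3, 28.7 and 76.0 CPM (log2 change 1.86, SE 0.29, adjusted p = 0.00038), whereas Angpt1, which steadies them, fell by 1.32 (adjusted p = 0.010). Vegfa, the chief growth factor of endothelium, fell by 0.90 (SE 0.29, adjusted p = 0.027), with sham replicate 5 at 348 CPM inside the cell sheet range of 195 to 583 CPM. Its call was lost without TMM (-0.63, adjusted p = 0.073) and without sham replicate 3, 4 or 6 or cell sheet replicate 6 (adjusted p from 0.052 to 0.061). Ndnf, a secreted factor that favours endothelial survival, rose by 3.58 (SE 1.07, adjusted p = 0.018) and by 5.77 without sham replicate 5. It was also higher than in MI, by 2.63 (adjusted p = 0.031). The chemokine Cxcl12 measured 202, 334 and 387 CPM in sham and 220, 498 and 854 CPM with the sheet. Its log2 change of 0.63 (SE 0.31) did not pass (adjusted p = 0.11). It passed without TMM (0.94, adjusted p = 0.028), in the fit of all 54 libraries (0.64, adjusted p = 0.022) and without cell sheet replicate 3 (0.79, adjusted p = 0.032). Ackr3, a receptor that takes up Cxcl12, fell by 0.84 (adjusted p = 0.0043).

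Mitochondrial genes were lower as whole groups. Of 78 oxidative phosphorylation subunits tested, 77 were lower and 0 higher (median log2 change -2.05, where 23.2% of all genes were called lower). All 73 mitochondrial ribosomal proteins tested were lower (median -1.31), as were 22 of 25 genes of the TCA cycle and pyruvate dehydrogenase (median -1.54) and 23 of 28 of fatty acid uptake and oxidation (median -1.71). Without both outlying libraries the counts were 79 of 79, 73 of 73, 25 of 25 and 27 of 28, where 29.4% of all genes were lower. Summed over the 12 markers, cardiomyocyte RNA had a lower median as well, and the groups overlapped. The sums were 29500, 88800 and 95400 CPM in sham and 201, 27800 and 39200 CPM with the sheet. Of these 12 markers 3 were called lower and 0 higher, a share near the 23.2% of all genes that were lower. Without both outlying libraries 10 of 12 were lower and 0 higher. The part of the fall in cardiomyocyte RNA in the mitochondrial values was not tested.

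**Figure D2:**
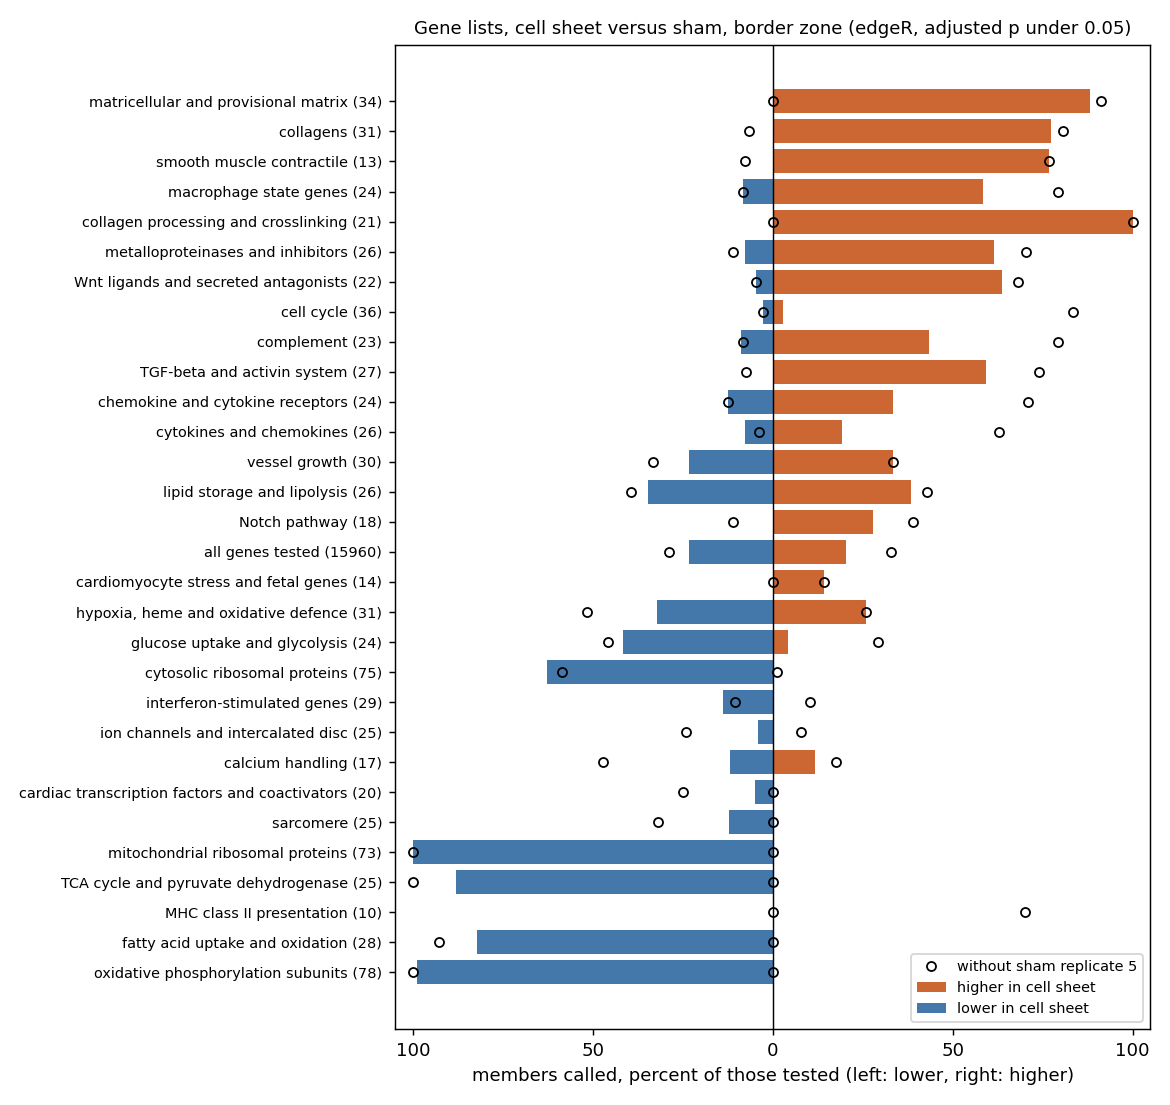
Share of the tested members of 29 gene lists and of all genes that were called higher (right) or lower (left) with the cell sheet than in sham, in percent, with the number tested in parentheses. Circles give the same without sham replicate 5. The 4 mitochondrial lists near the foot lie between 82.1 and 100% lower, and the cell cycle list is the one where the circle lies farthest from its bar.

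Ndufa5, a subunit of complex I, measured 424, 849 and 1256 CPM in sham and 37.4, 132 and 226 CPM with the sheet, 6.60-fold lower (log2 change -2.72, SE 0.40, adjusted p = 0.00025). Groups did not overlap, although the lowest sham value, 424 CPM, was again replicate 5 and the lowest cell sheet value was replicate 1. Of complex IV, Cox8b, the heart and skeletal muscle form of its subunit, went from a sham median of 1272 CPM to 143 CPM and to 0.464 CPM in cell sheet replicate 1 (log2 change -3.09, SE 0.87, adjusted p = 0.013). Cox4i1, made in all tissues, fell by 2.03 (SE 0.33, adjusted p = 0.00057), and Cox7b fell by 2.72 (SE 0.42). The subunit that did not pass was Cox6a2, another muscle form, at -1.79 (adjusted p = 0.067), named after its value was seen. Mrps18c, of the small mitochondrial ribosome subunit, measured 46.6, 62.3 and 104.8 CPM in sham and 10.1, 13.9 and 18.9 CPM with the sheet (log2 change -2.25, SE 0.22, adjusted p = 2.1e-05).

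Fuel genes were lower beside the chain they feed. Fabp3, which carries fatty acids through the cardiomyocyte, measured 912, 3456 and 3677 CPM in sham and 5.33, 560 and 751 CPM with the sheet (log2 change -2.67, SE 0.76, adjusted p = 0.014). Mpc1, of the carrier that brings pyruvate into mitochondria, fell by 2.26 (SE 0.41, adjusted p = 0.0011), and Acaa2, the last enzyme of a turn of β-oxidation, by 2.20 (SE 0.38, adjusted p = 0.00073). Esrra, a nuclear receptor that drives mitochondrial genes, fell by 1.32 (SE 0.25, adjusted p = 0.0013). Of 24 glucose uptake and glycolysis genes 10 were lower and 1, the glucose transporter Slc2a3, higher, where 23.2% of all genes were lower and 20.4% higher. The lower ones included the muscle form Pgam2 (-2.28) and Aldoa (-1.25). Without sham replicate 5 the counts were 11 lower and 7 higher, where 28.7% of all genes were lower and 32.9% higher. The share higher was then near that of all genes.

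Of 25 sarcomere genes tested, 3 were lower (Tnni3, Myl3 and Tpm1) and 0 higher, with a median log2 change of -1.26. That share, 12%, was below the 23.2% of all genes that were lower. With a replicate block, whose numbers did not pair the sham and cell sheet animals, none was called. Tnni3, cardiac troponin I, measured 3708, 10520 and 12260 CPM in sham and 13.6, 1614 and 3255 CPM with the sheet, a log2 change of -2.67 (SE 0.81, adjusted p = 0.018) with no overlap. Myl2, the ventricular light chain, had a median of 9602 CPM in sham and 2826 CPM with the sheet, and its change of -1.76 (SE 0.78) did not pass (adjusted p = 0.085). Without cell sheet replicate 1 it did (adjusted p = 0.012). Without both outlying libraries 16 of 25 sarcomere genes were lower and 1 was higher, where 29.4% of all genes were lower. Atp2a2, the calcium pump of the sarcoplasmic reticulum, behaved alike: -1.15 (adjusted p = 0.10) with all 12 libraries and -1.09 (adjusted p = 0.0045) without both. Trdn, triadin of the calcium release complex, fell by 2.26 (adjusted p = 0.021). Nppa, the natriuretic peptide of stressed muscle, had medians of 936 CPM in sham and 3302 CPM with the sheet, but sham replicate 5 held 4575 CPM and cell sheet replicate 1 held 12.1 CPM, and its log2 change was 1.01 (adjusted p = 0.41). Without both it was 1.96 (adjusted p = 0.012).

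**Figure D3:**
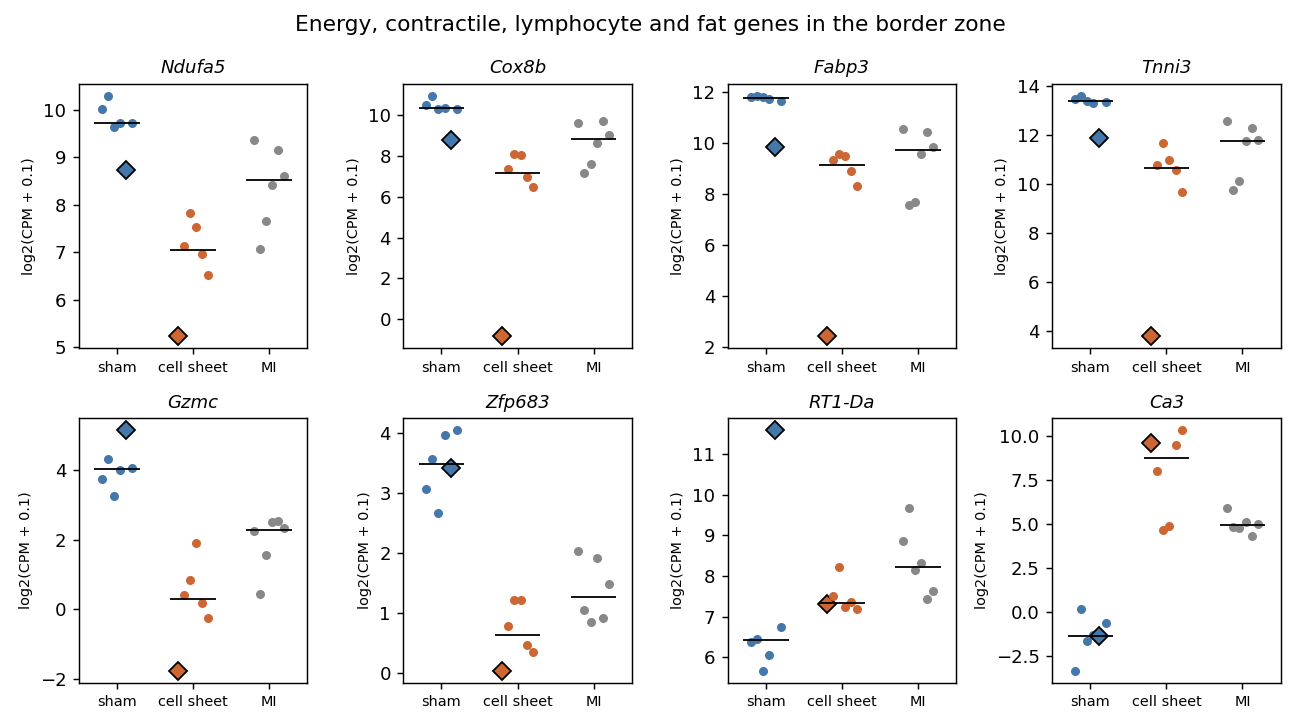
Levels of 8 genes of energy metabolism, contraction, lymphocytes and fat in each border zone library, as log2(CPM + 0.1), in the sham, cell sheet and MI groups (6 points each, line at the median). Black-edged diamonds are sham replicate 5 and cell sheet replicate 1. Cell sheet replicate 1 lies far below its group for Cox8b (0.464 CPM), Fabp3 (5.33 CPM) and Tnni3 (13.6 CPM), and sham replicate 5 lies far above its group for RT1-Da (3075 CPM).

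Macrophage genes were higher, and how many passed turned on sham replicate 5. Its 10 macrophage markers summed to the sham maximum of 2880 CPM, whereas the sham median was 486 CPM and the cell sheet median 2020 CPM. With all libraries 5 of 10 markers were higher (20.4% of all genes), and without that library all 10 were (32.9% of all genes). Cd163, the haemoglobin scavenger receptor of resident macrophages, was not raised in sham replicate 5 (22.1 CPM). It measured 21.1, 31.7 and 40.4 CPM in sham and 19.9, 222 and 521 CPM with the sheet, a 7.28-fold rise (log2 change 2.86, SE 0.60, adjusted p = 0.0026), in which cell sheet replicate 3 (19.9 CPM) lay below every sham library. Csf1r, the growth factor receptor of macrophages, rose by 1.68 (adjusted p = 0.0053), and Gpnmb, of lipid-laden macrophages, by 3.20 (adjusted p = 0.0074). C1qa, a chain of the first complement component, had a log2 change of 0.63 (adjusted p = 0.45), and of 1.81 (adjusted p = 0.0011) without sham replicate 5. Of 23 complement genes 10 were higher and 2 lower, where 20.4% of all genes were higher and 23.2% lower. C6, a part of the membrane attack complex, led the complement genes with 1.43, 4.62 and 11.9 CPM in sham and 5.97, 284 and 725 CPM with the sheet (log2 change 5.82, SE 0.98, adjusted p = 0.00068).

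Dividing cells and antigen presentation showed the same dependence. Of 36 cell cycle genes 1 was higher and 1 lower with all 12 libraries, and 30 were higher and 1 lower of 36 without sham replicate 5. Of all genes 20.4% were higher and 23.2% lower with all 12 libraries, and 32.9% and 28.7% without sham replicate 5. Mki67, made by cycling cells, measured 13.1, 16.1 and 119 CPM in sham, the last in replicate 5, and 24.6, 66.3 and 106 CPM with the sheet. Its log2 change was 1.09 (adjusted p = 0.15) with that library and 2.13 (adjusted p = 0.00022) without it. Of 10 genes of MHC class II presentation none was called by edgeR with all libraries (median -1.68), and 7 were higher and 0 lower without sham replicate 5 (median 0.98). RT1-Da, a class II chain, stood at 3075 CPM in that library, at 50.7 CPM in the lowest sham library and at 146 to 301 CPM with the sheet, and no other sham library reached the lowest cell sheet value. Reads of RT1 genes may be shared between near-identical members, so single values of that family are uncertain.

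Of 10 T and natural killer cell markers 3 were lower and 0 higher with all libraries, and 3 lower and 3 higher without sham replicate 5. These shares are near those of all genes, 23.2% lower with all libraries, and 28.7% lower and 32.9% higher without sham replicate 5. Their summed level was 842 CPM in that library, with a sham median of 84.8 CPM and 112 to 309 CPM with the sheet. Granzymes, the proteases of killer lymphocytes, were lower with and without it. Gzmc, a granzyme, measured 9.42, 16.3 and 35.1 CPM in sham and 0.193, 1.13 and 3.62 CPM with the sheet, 13.1-fold lower with no overlap (log2 change -3.71, SE 0.56, adjusted p = 0.00031). Gzma fell by 2.96 (SE 0.48, adjusted p = 0.00053) and Gzmb by 3.27 (SE 0.85, adjusted p = 0.0085). Granzyme genes lie in a cluster of similar copies, so how reads divide between them is uncertain. Zfp683 (Hobit), a transcription factor of tissue-resident lymphocytes, measured 6.26, 11.1 and 16.3 CPM in sham and 0.927, 1.46 and 2.23 CPM with the sheet (log2 change -2.87, SE 0.30, adjusted p = 3.5e-05), and sham replicate 5 (10.5 CPM) was ordinary for it. Xcl1, a chemokine of natural killer cells, and Cd96, a receptor on them, fell by 3.62 and 2.93 with all libraries and by 1.87 and 1.69 without sham replicate 5. Cd3e went the other way about this library: its log2 change was -3.89 (adjusted p = 0.063) with it and 1.18 (adjusted p = 0.14) without it. Cd8a measured 0.239, 1.00 and 86.5 CPM in sham and 3.44, 15.4 and 34.8 CPM with the sheet, a log2 change of 0.05 (adjusted p = 0.98), or 3.37 (adjusted p = 0.0020) without sham replicate 5. Igha, the heavy chain of immunoglobulin A, was at 0 CPM in the sham median and 2.34 CPM in sham replicate 5, and at 0.0485, 5.41 and 19.8 CPM with the sheet (log2 change 4.06, SE 1.28, adjusted p = 0.022).

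**Figure D4:**
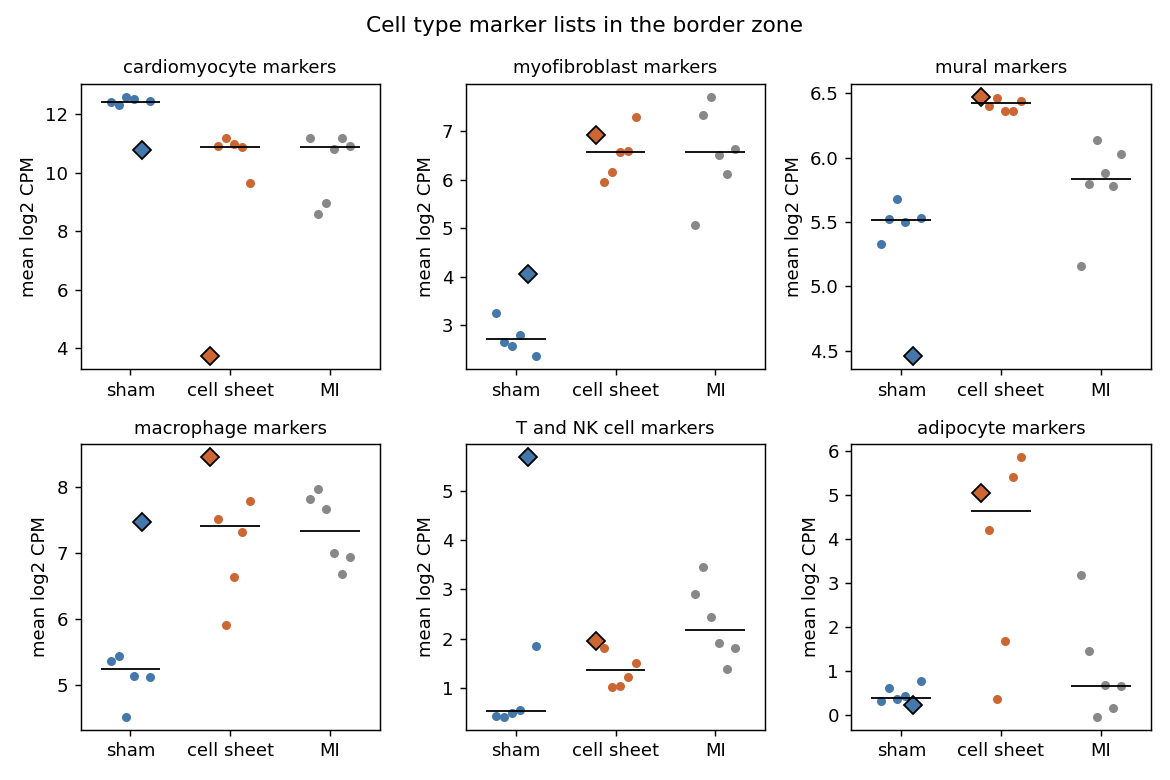
Mean log2 CPM of the marker lists of 6 cell types in each border zone library of the sham, cell sheet and MI groups (6 points each, line at the median). Black-edged diamonds are sham replicate 5, high for T and NK cell and macrophage markers and low for mural and cardiomyocyte markers, and cell sheet replicate 1, low for cardiomyocyte markers (3.74 against a group median of 10.9).

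Fat cell genes split the cell sheet group. Adipoq, the hormone adiponectin of fat cells, measured at most 0.158 CPM in sham, and in cell sheet replicates 1 to 6 it measured 182, 49.9, 0, 1.85, 118 and 233 CPM. Plin1, which coats the lipid droplet of adipocytes, measured 128, 42.6, 0, 2.07, 133 and 193 CPM in the same libraries, and at most 0.0957 CPM in sham. Both were left out of the test with all 12 libraries by the filter on low counts. Replicates 1, 2, 5 and 6 were thus high and replicate 3 was like sham. Of 12 adipocyte markers 5 were tested, 2 higher and 3 lower. The lower ones, Fabp4, Plin4 and Cidea, were also at 226 to 1350, 64.1 to 272 and 73.5 to 153 CPM in sham tissue.

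Among lipid genes, Fasn, fatty acid synthase, measured 20.8, 24.4 and 63.6 CPM in sham and 49.5, 160 and 1209 CPM with the sheet (log2 change 3.57, SE 0.79, adjusted p = 0.0035). Cfd, the complement protease adipsin secreted by fat, rose 20.7-fold (adjusted p = 0.0012), with cell sheet replicate 3 at 19.6 CPM inside the sham range of 10.8 to 36.4 CPM. Pck1, a gene of glycerol synthesis in fat, had 23 reads in all sham libraries together and 10 to 1517 in single cell sheet libraries. Whether fat cells on the dissected piece took part in these genes was not tested. Of 26 lipid storage and lipolysis genes 10 were higher and 9 lower, where 20.4% of all genes were higher and 23.2% lower.

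The largest rises with no overlap, taken by the rule given under processing, began with Ca3, a carbonic anhydrase of muscle and fat. Its 6 sham libraries held 34 reads in all and its cell sheet libraries 529 to 26277 each, a ratio of 1370 after scaling by library size (95% interval 982 to 1980, counting error only). Ca3 was also higher than in MI (20.3 to 61.4 CPM), by 3.92 on the log2 scale (adjusted p = 0.0093), although cell sheet libraries reached down to 25.7 CPM. Nr5a2, a nuclear receptor, had no read in any sham library and 17 to 355 with the sheet, at least 146-fold higher against a floor of 3 reads over the sham group. Gdf10, a ligand of the TGF-β family, had 1 sham read and 14 to 530 with the sheet (ratio 1110, interval 199 to 43800), and it was higher than in MI by 3.94 (adjusted p = 0.0064). Pnoc, which encodes the precursor of nociceptin, had 2 sham reads and 21 to 536 with the sheet. Others in this set were the matrix genes Tnn (tenascin N, 26 sham reads) and Lrrc15 (a membrane protein of activated fibroblasts, 6 sham reads), the adipokine gene C1qtnf3 at 6.70 (SE 0.55), Pmfbp1 at 6.96 (SE 0.95) and Clec2dl1, a lectin-like gene with near copies and so uncertain. Sfrp4, Col11a1 and Adam12, given above, completed it.

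Beside the genes already described, the largest falls with no overlap were in Dhrs7c, an enzyme of the sarcoplasmic reticulum of muscle (238 against 32.7 CPM, medians, log2 change -2.92, adjusted p = 0.0098), Misp3 (-2.88, adjusted p = 0.0011) and Cox7a2l2 (-2.78, adjusted p = 0.00022). All 6 cell sheet libraries lay below all 6 sham libraries for these by construction of the rule. The lack of overlap is likewise by construction for the other rises and falls of the rule described above. Among them are Gzmc, Zfp683, Ndufa5, Sfrp4, Col11a1 and Adam12.

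Ribosomal protein genes of the cytosol were lower with the sheet than in MI in 68 of 75 members and higher in 0 (median -0.80, where 9.48% of all genes were lower). Against sham 47 of 75 were lower and 0 higher (median log2 change -0.49), where 23.2% of all genes were lower. That count rested on the scaling: without TMM 10 were lower and 1 higher (median -0.22), and with a replicate block 22 were lower. Their summed level ran from 32500 to 49200 CPM in sham, from 47100 to 63500 CPM in MI and from 23500 to 35200 CPM with the sheet. Cell sheet and MI libraries did not overlap in that sum, whereas cell sheet and sham libraries did. Many ribosomal genes have processed copies that can share their reads, so single members are uncertain.

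In all 2922 of 16272 genes differed from MI (18%), in a comparison that uses the same cell sheet libraries as the one with sham. Whether the 2 comparisons differ was not tested. None of the 25 sarcomere genes or 12 cardiomyocyte markers was called by edgeR against MI, and of 10 macrophage and 10 myofibroblast markers none was either. Over all genes tested 5279 had an unadjusted p under 0.05, and DESeq2 called 3945. Oxidative phosphorylation subunits were lower than in MI in 21 of 78 (median -0.76) and mitochondrial ribosomal proteins in 32 of 73 (median -0.55). Among all genes 9.48% were lower and 8.47% higher in this comparison. Of 32 collagens 8 were higher, with Col6a1, Col6a2 and Col6a3 at 1.22, 1.11 and 1.21 (adjusted p = 0.026, 0.033 and 0.032), while Col1a1 (0.83, adjusted p = 0.13) and Col12a1 (0.83, adjusted p = 0.33) did not pass. Lower than in MI were Trem2 and Tyrobp, of macrophages (-1.05 and -1.12), and Cd3g (-1.86), and higher were Sfrp1 (1.29), Fasn (2.81) and Igha (4.61). In their lists, 3 of 24 macrophage state genes were lower and 0 higher, a share near that of all genes. Of 11 T and NK cell markers 3 were lower and 0 higher. Higher were 6 of 23 Wnt genes, 9 of 28 lipid storage and lipolysis genes and 2 of 4 B and plasma cell markers, with 0 lower in each.

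The change from sham was not the same in all 3 zones. Between border and remote pieces of the same animals the cell sheet minus sham difference itself differed in 7264 of 16518 genes (44%), 3541 with the larger value in the border zone and 3723 with the smaller. Pieces with the same replicate number were taken as 1 animal and fitted as a block, and without that block 2669 genes passed. In the remote zone Col6a1 measured 276, 305 and 423 CPM in sham and 220, 318 and 1160 CPM with the sheet. Its difference of changes was 2.19 (adjusted p = 0.0015). The highest remote cell sheet values of Col1a1 (10900 CPM, median 812 CPM) and Postn (2800 CPM, median 131 CPM) lay within the border zone cell sheet ranges. Remote pieces of the cell sheet group were thus not uniformly like sham, and outliers were screened in border zone libraries only. Ndufa5 had remote medians of 535 and 423 CPM, and its change was smaller in the border zone by 2.54 (adjusted p = 0.00034), that is, more strongly downward. Notch3 was higher in the border zone change by 1.46 (adjusted p = 0.00043). Myh11 was high with the sheet in every zone, 88.7 to 181 CPM in remote pieces against 35.4 to 66.0 CPM in sham ones, and its difference of changes was 0.45 (adjusted p = 0.11). The border change was the lower one in 78 of 79 oxidative phosphorylation subunits, and the higher one in 22 of 31 collagens and the lower one in 1.

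**Figure D5:**
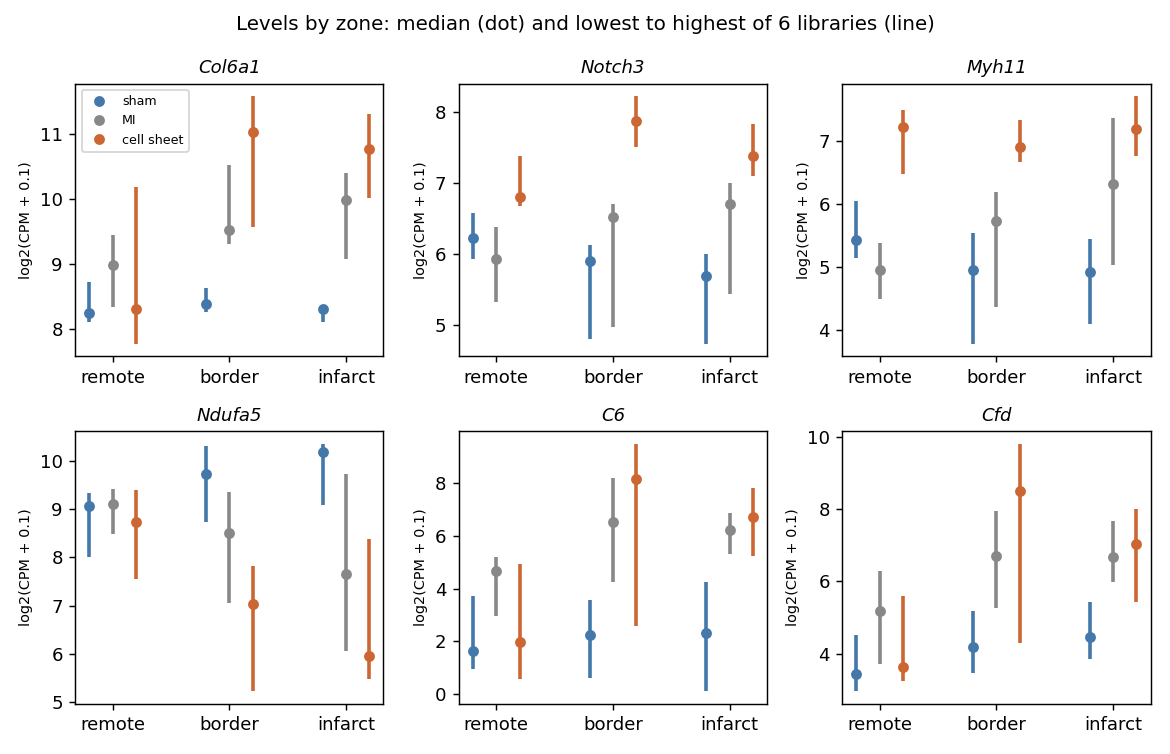
Levels of 6 genes in remote, border and infarct pieces of sham, MI and cell sheet hearts, as log2(CPM + 0.1) (dot, median; line, lowest to highest of 6 libraries). Sham and cell sheet ranges overlap in the remote zone for Col6a1, Ndufa5, C6 and Cfd and are apart there for Notch3 and Myh11.

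Between border and infarct pieces 1 gene of 16983 (0.00589%) passed the same test by edgeR, Lipe, the hormone-sensitive lipase of fat, at a difference of changes of 1.00 (SE 0.101, adjusted p = 0.00435). Its medians were 86.2 CPM in sham and 91.0 CPM with the sheet in the border zone, and 88.3 and 46.0 CPM in the infarct zone. At an unadjusted p under 0.05 there were 1749 genes, and DESeq2 called 87. Without cell sheet replicate 6 edgeR called 156, without replicate 2 it called 2 and without replicate 4 it called 3.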

How the data were processed

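PolyA RNA from infarct, border and remote zone pieces of the rat left ventricle was sequenced as paired reads of 54 libraries, 6 for each of 3 treatments in each of 3 zones. Per the study's methods the authors aligned reads with STARAligner to Rattus norvegicus and analysed them with DESeq2, and per the labels the build was mRatBN7.2. The counting tool and its strand setting are not given in the sources used here, so reads of a gene and of an antisense or overlapping partner may not be separated, and human reads from the sheet were not told apart from rat reads. The deposited values are raw counts per gene, 40319 genes in each file. The 5 summary lines of each file, 17.1 to 38.9% of the totals in the 12 libraries compared, were left out.

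Genes were tested with edgeR 4.0.16 in R 4.3.3 (filterByExpr, TMM, quasi-likelihood F test, Benjamini-Hochberg threshold 0.05) on the groups compared only. Levels are CPM scaled by TMM over all 54 libraries. For the comparison of zones, the term for treatment by zone was tested in a fit that blocked on the rat. Counts were also simulated with 200 changed genes, in equal numbers 2-fold and 4-fold. The test of border zone groups over 15725 genes recovered 62 of those changed 2-fold and 90 of those changed 4-fold. Of the genes called, 6.17% had not been changed. The simulation changed far fewer genes than were called in the data. A chi-square comparison of counts found every pair of libraries in a group to differ by more than sampling noise. Alternatives were DESeq2 1.42.0, other filters, no TMM, a replicate block, a fit of all 54 libraries and leaving out single libraries. Leaving out cell sheet replicate 1 for the gene lists was added after its marker level was seen.

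Genes named are the 12 largest rises and 12 largest falls among genes past the threshold whose groups did not overlap and whose average log2 CPM was 1 or more (unnamed loci skipped), 9 genes of interest to the study, and from each list the 4 most abundant members and the 4 with the largest change. Of the largest falls, 1 is not reported here. Members named to account for the exceptions of a list, for its calls against MI, or for fat cells were chosen after their values were seen. The members, lists and tests were chosen with earlier results of these data known. Intervals and floors cover counting error only.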

Additional observations from a re-analysis of the deposited data

Results flagged for a closer look

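Within each group of 6 border zone libraries, taking log2 levels, the gap between the highest or lowest library and its nearest neighbour was divided by the range of the group, and 56 of 191 groups of values had a share above Dixon's critical value at the level of 95%. Chance alone gives about 1 in 20. Sham replicate 5 was the library apart in 38 of them. Among genes it stood apart for Tnc (0.641), Spp1 (0.794), Ltbp2 (0.704), Pecam1 (0.646), Cdh5 (0.766), Tek (0.717), Vegfa (0.727), Cox8b (0.697), Cox4i1 (0.712), Atp5f1b (0.874), Fabp3 (0.898), Acaa2 (0.897), Esrra (0.738), Dhrs7c (0.812), Tnni3 (0.828) and Myl2 (0.786). It also stood apart for Mb (0.837), Atp2a2 (0.733), Trdn (0.878), C1qa (0.707), Csf1r (0.727), Gpnmb (0.741), Cd74 (0.953), RT1-Da (0.817), Cd3e (0.659), Cd96 (0.723), Xcl1 (0.665), Igha (0.704), Mki67 (0.805) and Fasn (0.726). Among the mean levels of marker lists it stood apart for cardiomyocyte markers (0.84), endothelial markers (0.798), mural markers (0.713), macrophage markers (0.688), B and plasma cell markers (0.835), T and NK cell markers (0.729), skeletal muscle markers (0.752) and lung epithelium markers (0.729). Cell sheet replicate 1 was the library apart in 10 of them, for Cox8b (0.816), Fabp3 (0.828), Dhrs7c (0.805), Tnni3 (0.743), Myl2 (0.727), Mb (0.783), Atp2a2 (0.632), Trdn (0.757), Nppa (0.644) and cardiomyocyte markers (0.793). Cell sheet replicate 3 was apart in 4, for Ndnf (0.63), RT1-Da (0.701), Igha (0.703) and mesothelial markers (0.719). Cell sheet replicate 4 was apart for lung epithelium markers (0.891). Cell sheet replicate 6 was apart for Cd96 (0.675). Sham replicate 1 was apart for Gdf10 (1) and Pnoc (1). The single sham read of Gdf10 and the 2 of Pnoc lay in 1 library each, which gives a share of 1 whatever their number.

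The cell sheet minus sham change differed between the border and remote zones by a test of the difference itself (edgeR, adjusted p under 0.05) in 7264 genes, 65 of them named here. On the log2 scale the border change was the higher one for Col1a1 (3.37), Col3a1 (2.38), Col6a1 (2.19), Col6a2 (2.14), Col6a3 (2.38), Col11a1 (4.84), Col12a1 (3.83), Fn1 (3.19), Postn (3.60), Tnc (4.29), Cthrc1 (3.21), Spp1 (3.85), Lox (2.58), P4ha3 (3.62), Mmp14 (2.32), Adam12 (4.16), Ltbp2 (3.18), Sfrp4 (5.29), Sfrp1 (2.96) and Acta2 (1.39). It was also the higher one for Tagln (0.91), Notch3 (1.46), Cdh5 (0.82), Angpt2 (1.29), Ndnf (5.26), Cd163 (1.61), C1qa (1.18), Csf1r (1.53), Gpnmb (2.81), C6 (4.31), RT1-Da (0.84), Cd8a (2.72), Igha (7.25), Clec2dl1 (5.68), Mki67 (1.12), Fasn (2.51), Pck1 (6.57), Cfd (3.18), Ca3 (8.90) and Pmfbp1 (4.79). The border change was the lower one for Vegfa (-0.72), Ackr3 (-0.77), Cox8b (-3.72), Cox4i1 (-1.67), Cox7b (-2.78), Cox7a2l2 (-2.74), Ndufa5 (-2.54), Atp5f1b (-1.51), Fabp3 (-3.00), Acaa2 (-1.73), Mpc1 (-2.13), Esrra (-1.42), Mrps18c (-1.94), Dhrs7c (-2.92), Misp3 (-2.79), Tnni3 (-3.06), Mb (-2.74), Atp2a2 (-1.25), Trdn (-2.42), Gzma (-1.66), Gzmb (-2.01), Gzmc (-2.99), Cd96 (-1.33), Xcl1 (-1.54) and Zfp683 (-2.07). Between the border and infarct zones the difference passed in 1 gene, Lipe (1.00).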

How the results depend on the processing

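The count of genes changed between cell sheet and sham stayed within 1.5 times of 6955 under DESeq2, both filters, no TMM, the replicate block (6040), the fit of all libraries and each library left out (5820 without cell sheet replicate 6 to 9954 without sham replicate 5). It was 2967 with an absolute log2 change above 1. Against MI the count of 2922 was 1214 with the replicate block and 1941 to 3083 with single libraries left out, the lowest without cell sheet replicate 2. The border against remote count of 7264 was 2669 with no replicate block and 5947 to 7793 with single libraries left out. The border against infarct count of 1 was 87 by DESeq2, 3 with no filter, 4 with at least 10 counts in every library, 0 with no replicate block (1056 at an unadjusted p under 0.05) and 1 to 156 with single libraries left out. The causes were not tested. Same-numbered sham and cell sheet libraries, which are different animals, had correlations of their deviations from -0.213 to 0.392, so the numbers did not pair them, and 1 of 6 numbers matched best with itself.

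Of 82 named genes, 55 to 80 kept their direction and side of the threshold in each alternative, the fewest with at least 10 counts in every library, where 56 were tested. Direction turned without both outlying libraries for Dcn (-0.018) and Pecam1 (-0.024), and for RT1-Da under the replicate block (0.62), without sham replicate 5 (1.19) and without both (1.23). Cd3e turned in the same settings (0.15, 1.18 and 1.29), and with single libraries left out the RT1-Da log2 fold change, cell sheet versus sham, border zone, ranged from -1.88 to 1.19, the Cd3e log2 fold change, cell sheet versus sham, border zone, from -4.15 to 1.18, and that of Cd8a from -0.32 to 3.37. List medians turned for MHC class II (0.371 with the replicate block, 1.07 without both, -1.89 to 0.984 with single libraries left out), for T and NK cell markers (-2.46 to 0.45 with single libraries left out, the highest without sham replicate 5), and for adipocyte markers, whose tested members changed with the filter (5.68 with no filter, 6.96 with all libraries fitted, -1.14 to 7.47 with single libraries left out, against -1.02). Smaller medians also changed sign: vessel growth (-0.033 without both, against 0.168), cytokines and chemokines (-0.276 without cell sheet replicate 1, against 0.399, and below 0 also with at least 10 counts in every library), endothelial markers (0.109 without TMM, against -0.184) and the 2 lung epithelium markers (1.22 without sham replicate 5, 1.12 without both and 0.864 with the replicate block, against -0.267). Skeletal muscle markers, at 0.12, were below 0 with at least 10 counts in every library and without sham replicate 2 or cell sheet replicate 3. The calls of Vegfa, Tek and Cdh5 were also lost with the replicate block (adjusted p = 0.056, 0.11 and 0.055). So were those of Fabp3, Tnni3, Trdn, Mb and Gzmb (adjusted p = 0.055, 0.060, 0.057, 0.11 and 0.058). No sarcomere gene or cardiomyocyte marker was called under that block. Those of Tek, Cdh5 and Mb were lost with no filter, and that of Mb with most single libraries left out. Tnc did not pass without sham replicate 1 or cell sheet replicate 6 (adjusted p = 0.051 and 0.056). Igha did not pass without cell sheet replicate 6 (adjusted p = 0.052).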
